A study of Mus musculus with 12 samples.

Results

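Gja1 and Panx1 were the 2 genes of the connexin and pannexin families with a measured value on these arrays, which hold no named probe for the targeted connexin. They were found as the probes whose only gene in the array's probe table is Gja1 or Panx1 and that have a value in all 12 samples. This gave 3 cDNA clones of 13443 probes with values, namely probe 25957 for Gja1, probe 22040 for Panx1 (the first clone in what follows) and probe 28262 for Panx1 (the second clone). The probe table names 6 probes for a single connexin or pannexin. The other 3, for Gjc1, Gja4 and Gjb5, have no value in any sample, so nothing can be said of those genes.

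The RNA came from brains of mice on the C57Bl/6j background at postnatal day 10. Wildtype mice were compared with Gja9 (-/-) mice (Gja9_null) and with Gja9 (+/-) mice (Gja9_het), 4 biological replicates of each genotype. Gja9 is an older name of Gjd2, the connexin36 gene. The sources used here do not name the construct of the null allele or the sex of the mice. Each array was a 2-colour spotted cDNA array that took 2 extracts of the same genotype, 1 in Cy5 and 1 in Cy3, which makes 6 arrays for the 12 samples, 2 arrays a genotype.

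Connexins assemble into hemichannels that dock between neighbouring cells and form gap junctions, through which ions and small metabolites pass. Gja1 encodes connexin43, the main gap junction protein of astrocytes, which couples them into networks that share potassium, glucose metabolites and calcium signals, and it is also made in the meninges, the ependyma and vascular cells. Panx1 encodes pannexin1, whose subunits resemble connexins in membrane topology but not in sequence. It forms large-pore channels in a single membrane that release ATP, in neurons and in glia, and that open on caspase cleavage or downstream of purinergic receptors. Connexin36, the protein of Gjd2, forms the electrical synapses between neurons. The comparison asks whether the transcripts of the other channel genes differ in brains with no copy or with a single intact copy of the connexin36 gene. The probe table holds no probe for Gjd2, so the loss of the targeted transcript could not be checked here.

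Values are log2 signals relative to the mean signal of the same sample, so that 0 is the sample's mean and a value of 1 lies above it by 1 log2 unit. The level of a clone can be compared between samples, but not with the level of another clone. Pairs of samples taken to share an array were nearly alike, with correlations across probes from 0.986 to 0.991. These pairs were read from the same values, so their likeness is not separate support for the pairing. The correlations were 0.865 to 0.921 between arrays of the same genotype and 0.807 to 0.922 between samples of different genotypes. The first Gja9_null array, taken to hold replicates 1 and 2, stood apart. The median value of its samples was -0.98 and -0.95. On the second Gja9_null array it was -0.91 and -0.90, and in the wildtype and Gja9_het samples it lay between -0.89 and -0.81. Both Gja9_null arrays thus had lower medians than the other arrays, the first the lowest. Long runs of neighbouring probes also lay low on the first Gja9_null array, as described for each clone below. The Gja9_null differences of Gja1, of each Panx1 clone and of their mean are therefore also given without it, while those of the partner and marker genes rest on both Gja9_null arrays.

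Gja1 had higher values in each wildtype sample than in each Gja9_het sample, and it split the Gja9_null samples by array. In wildtype brains the Gja1 log2 signal was 0.75, 0.58, 0.94 and 0.77 in replicates 1 to 4. In Gja9_het brains it was 0.41, 0.36, 0.39 and 0.42. In Gja9_null brains it was 0.05 and 0.01 on the first array and 0.98 and 1.29 on the second. Thus the Gja9_null samples held both the lowest and the highest Gja1 signals of the study and overlapped both other genotypes, while the Gja9_het samples fell in a narrow band below the wildtype samples. The mean Gja1 signal stood at 0.76 ± 0.15 for wildtype, at 0.58 ± 0.65 for Gja9_null and at 0.40 ± 0.03 for Gja9_het (log2, SD, n = 4 samples on 2 arrays each). Of all probes, 6.49% had the 4 Gja9_het samples below all 4 wildtype samples, as Gja1 did.

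**Figure D1:**
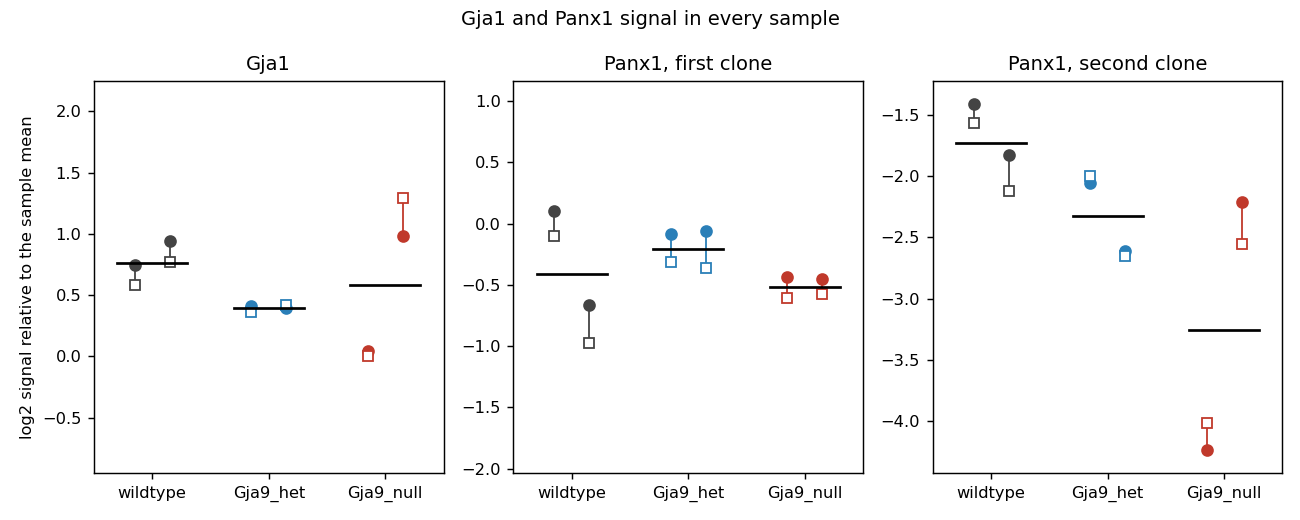
The log2 signal of Gja1 and of both Panx1 clones (y axis, relative to the mean signal of each sample) in the 3 genotypes (x axis). Filled circles are Cy5 samples and open squares Cy3 samples, a thin line joins the 2 samples of an array, and the black bar is the mean of 4 samples. For Gja1 and the second Panx1 clone the Gja9_null samples separate by array, and all y axes span the same number of log2 units.

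None of the 3 genotype comparisons of Gja1 passed the test. In limma with the array as a random block, Gja1 differed by -0.18 ± 0.41 log2 units in Gja9_null against wildtype (SE, Benjamini-Hochberg adjusted p = 0.919), which is 0.883 times the wildtype level with a 95% interval of 0.480 to 1.63. It differed by -0.37 ± 0.41 in Gja9_het against wildtype (adjusted p = 1, limma), or 0.776 times the wildtype level with an interval of 0.422 to 1.43. Gja9_null exceeded Gja9_het by 0.19 ± 0.41 (adjusted p = 0.861, limma), or 1.14 times with an interval of 0.618 to 2.09. In these fits over 9514 features, 0.326% of features were called in Gja9_null against wildtype, 0% in Gja9_het against wildtype and 0.273% in Gja9_null against Gja9_het. The intervals leave room for a change of Gja1 in either direction. In bulk RNA of a brain, fewer cells of a type and less RNA per cell cannot be told apart.

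The probes numbered next to the Gja1 clone moved with its Gja9_null values. The deviation of each array from the probe means was read over the 48 probes with values within 50 probe numbers of the Gja1 clone. On the first Gja9_null array the median of these neighbours was -0.98 log2 units, and on the other 5 arrays it lay between 0.11 and 0.41. Gja1 itself deviated by -0.55 on the first Gja9_null array and by 0.56 on the second, where its neighbours stood at 0.41. So on the first Gja9_null array Gja1 was low where its neighbours were low, but less so than they were. On the Gja9_het arrays Gja1 deviated by -0.20 and -0.17, while its neighbours stood at 0.24 and 0.13. The part of this neighbourhood in the genotype differences was not tested.

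For local centring, the local median was subtracted from each sample, here with the clone itself among the probes. The Gja1 values of the Gja9_null arrays then came together. Their means were then 1.01 and 0.72, against 0.53 and 0.73 on the wildtype arrays and 0.18 and 0.28 on the Gja9_het arrays. The difference between Gja9_null and wildtype turned to 0.23 ± 0.24 (limma adjusted p = 0.685). That between Gja9_null and Gja9_het grew to 0.63 ± 0.24, or 1.55 times with a 95% interval of 1.08 to 2.22, and did not pass after adjustment (limma adjusted p = 0.169). The Gja9_het difference from wildtype was -0.40 ± 0.24 (limma adjusted p = 0.781). Without the first Gja9_null array, the deposited values put Gja1 at 0.38 ± 0.41 above wildtype in Gja9_null and at 0.74 ± 0.41 above Gja9_het (limma adjusted p = 0.881 and 0.508).

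In the order of the Gja1 levels the place of Gja9_null changed. On the deposited values it was wildtype, Gja9_null, Gja9_het from high to low, and after median centring, quantile normalization or cyclic loess it was the same. After local centring it was Gja9_null, wildtype, Gja9_het. No neighbours in these orders differed beyond their spread in the test, and Gja9_het was the lowest under each of these 5 settings.

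**Figure D2:**
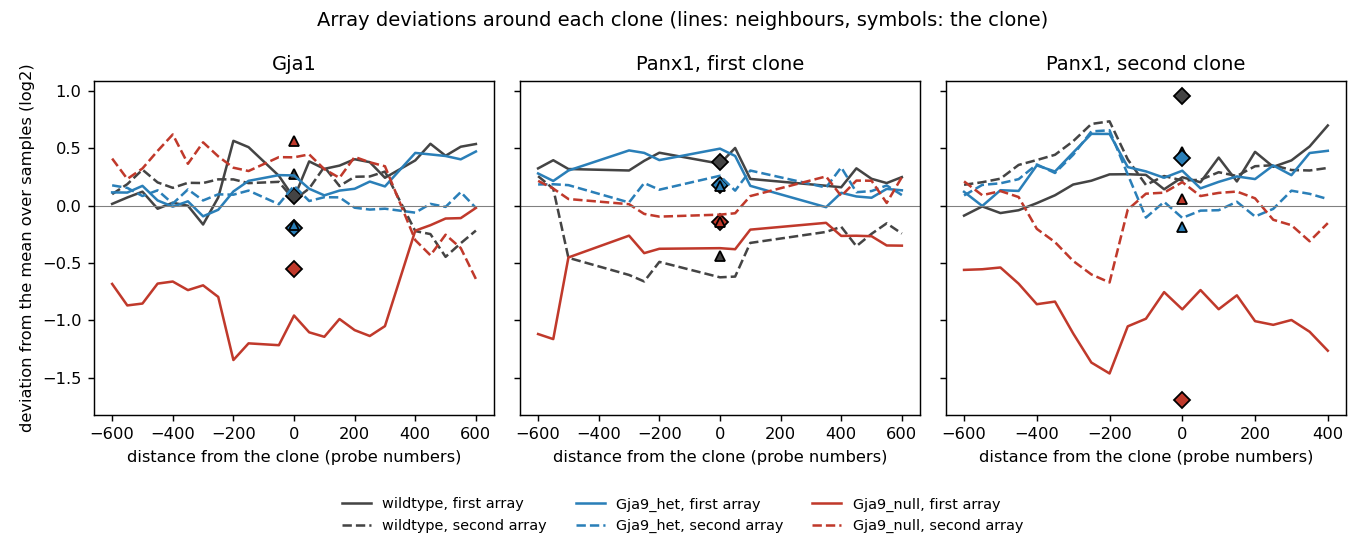
Median deviation of neighbouring probes from their mean over samples (y axis, log2) against the distance from each clone in probe numbers (x axis, bins with at least 20 probes), a line for each array. Symbols at distance 0 give the clone itself, with diamonds for the first and triangles for the second array of a genotype. The first Gja9_null array lies low around all 3 clones, with neighbourhood medians of -0.98 at Gja1, -0.40 at the first and -0.82 at the second Panx1 clone, and at the first Panx1 clone the second wildtype array lies lower still, at -0.60.

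The 2 Panx1 clones gave unlike values in the same samples. The first clone had nearly the same value in all Gja9_null samples, at -0.43, -0.60, -0.46 and -0.58 for replicates 1 to 4. Its Gja9_het values were -0.09, -0.32, -0.06 and -0.36. Its wildtype values were 0.10 and -0.10 on the first array and -0.67 and -0.97 on the second. Here the wildtype samples were the ones that split by array, and they overlapped both other genotypes. All 4 Gja9_null samples lay below all 4 Gja9_het samples, as they did for 20.1% of all probes.

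The first Panx1 clone did not pass in any comparison. It differed by -0.11 ± 0.34 in Gja9_null against wildtype, by 0.20 ± 0.34 in Gja9_het against wildtype and by -0.31 ± 0.34 in Gja9_null against Gja9_het (limma over 13443 probes, adjusted p = 0.956, 1 and 0.714). Over the 41 neighbouring probes, the second wildtype array deviated by -0.60 and the first by 0.38. The 2 Gja9_null arrays deviated there by -0.40 and -0.07, and the Gja9_het arrays by 0.53 and 0.19. The clone's own gap between the wildtype arrays, 0.82 log2 units, fell to 0.15 after local centring. After that step the differences were 0.01 ± 0.20 in Gja9_null against wildtype, -0.26 ± 0.20 in Gja9_het against wildtype and 0.27 ± 0.20 in Gja9_null against Gja9_het, with smallest limma adjusted p of 0.472. Without the first Gja9_null array, Gja9_null differed from wildtype by -0.11 ± 0.38 and from Gja9_het by -0.31 ± 0.38 (limma adjusted p = 0.970 and 0.794).

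The second Panx1 clone was lower in each Gja9_null sample than in each wildtype sample. Its wildtype values were -1.41, -1.57, -1.83 and -2.12. Its Gja9_het values were -2.06, -2.0, -2.61 and -2.65. Its Gja9_null values were -4.24 and -4.02 on the first array and -2.21 and -2.56 on the second. The first Gja9_null array stood far below the other 5 arrays, while the second lay within the range of the Gja9_het samples. Of all probes, 14.2% had the 4 Gja9_null samples below all 4 wildtype samples, as this clone did. The clone belonged to the dimmest 25% of probes, and its signal on the first Gja9_null array was 0.053 and 0.062 of the mean signal of those samples.

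By limma over all probes the second Panx1 clone differed by -1.52 ± 0.55 in Gja9_null against wildtype, or 0.348 times the wildtype level with a 95% interval of 0.155 to 0.778, and did not pass after adjustment (adjusted p = 0.339). In that comparison 0.126% of probes were called, and 0% in both others. Of the 13443 probes, 529 had a smaller unadjusted p than this clone. It differed by -0.60 ± 0.55 in Gja9_het against wildtype (limma adjusted p = 1) and by -0.93 ± 0.55 in Gja9_null against Gja9_het (limma adjusted p = 0.467).

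Most of the size of the second clone's difference came with the first Gja9_null array. Without that array, Gja9_null differed from wildtype by -0.65 ± 0.44 and from Gja9_het by -0.06 ± 0.44 (limma adjusted p = 0.770 and 0.978). Without the second Gja9_null array instead, the differences were -2.39 ± 0.46 and -1.80 ± 0.46 and both passed (limma adjusted p = 0.0123 and 0.0382), with a lone array for the genotype that is assumed to vary like the others. The neighbours of the clone, 51 probes, deviated by -0.82 on the first Gja9_null array and by -0.06 to 0.26 on the other 5. The clone itself deviated by -1.69 there. Local centring thus left a smaller difference of the same sign, -0.94 ± 0.31 in Gja9_null against wildtype (limma adjusted p = 0.174), and array means of -3.31 and -2.51 in Gja9_null against -1.73 and -2.21 in wildtype. The Gja9_het arrays then had means of -2.30 and -2.57.

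Panx1 as the mean of both clones stood at -1.07 ± 0.40 for wildtype, at -1.27 ± 0.19 for Gja9_het and at -1.89 ± 0.51 for Gja9_null (log2, SD, n = 4 samples on 2 arrays each). The order of these levels was the same on the deposited values and after median centring, quantile normalization, cyclic loess and local centring. Neighbours in it did not differ beyond their spread in the test: Gja9_het differed from wildtype by -0.20 ± 0.36 (limma adjusted p = 1), and Gja9_null from Gja9_het by -0.62 ± 0.36 (limma adjusted p = 0.433). Between the ends of the order, Gja9_null differed from wildtype by -0.82 ± 0.36 (limma adjusted p = 0.403, unadjusted p = 0.0393), or 0.568 times with a 95% interval of 0.333 to 0.969. In that comparison 9.22% of all features were lower with an unadjusted p under 0.05. With the 2 colours of each array averaged before the fit, the unadjusted p was 0.0619 and the interval on the log2 scale ran from -1.68 to 0.05.

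The Panx1 difference between Gja9_null and wildtype was smaller under several settings, at -0.46 ± 0.17 after local centring (limma adjusted p = 0.235) and -0.38 ± 0.34 without the first Gja9_null array (limma adjusted p = 0.832). Without that array the Panx1 difference between Gja9_null and Gja9_het was -0.18 ± 0.34 (limma adjusted p = 0.878). Leaving out the dimmest 25% of probes left the first clone alone. The Panx1 difference between Gja9_null and wildtype was then -0.11 ± 0.30 (limma adjusted p = 0.950). In the limma F-test for any genotype difference, which 0.326% of features passed, the adjusted p was 0.542 for Panx1 and 0.935 for Gja1. An exact permutation test over arrays, 2 against 2, cannot give a p below 0.333 and was not used. Both comparisons against wildtype share the same wildtype samples.

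**Figure D3:**
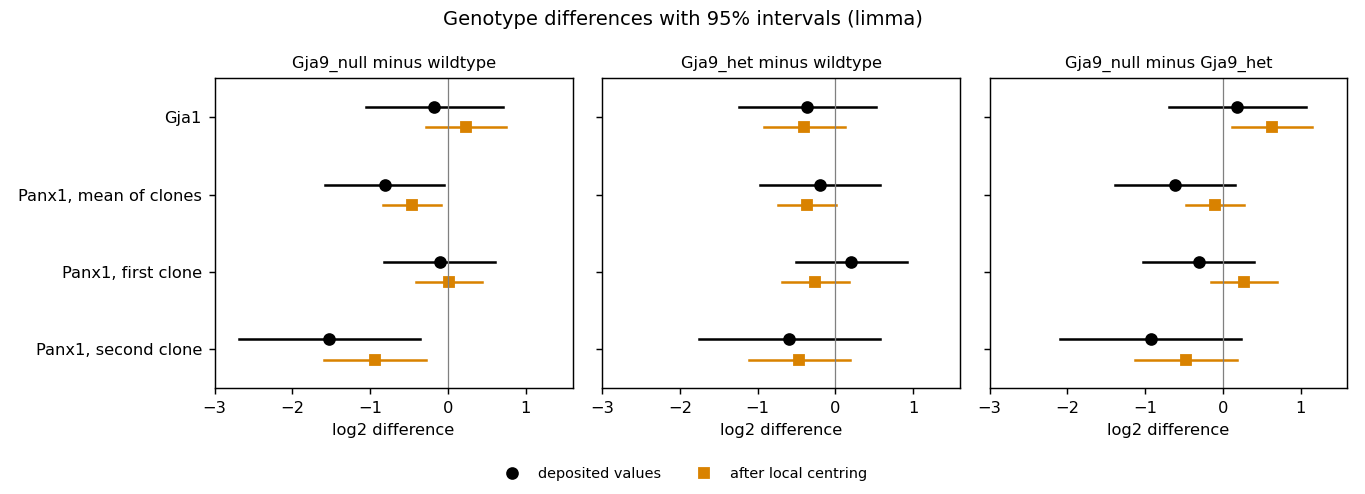
Log2 differences between genotypes (x axis) with 95% intervals for Gja1, the mean of the Panx1 clones and each Panx1 clone (y axis), on the deposited values (black circles) and after local centring (orange squares). Intervals are from limma with the array as a random block, without adjustment for the number of features. In Gja9_null against wildtype the second Panx1 clone moves from -1.52 to -0.94 and Gja1 from -0.18 to 0.23 with local centring.

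Whether the Panx1 clones disagree was tested on the difference between them within each sample, in which any scaling of the sample cancels. The second clone minus the first was 1.41 log2 units lower in Gja9_null than in wildtype (-1.41 ± 0.61, limma adjusted p = 0.485). That gap was -0.80 ± 0.61 in Gja9_het against wildtype and -0.62 ± 0.61 in Gja9_null against Gja9_het (limma adjusted p = 1 and 0.742). Of 4849 such clone differences, 0% were called in any of the 3 comparisons. Among the 1666 genes with exactly 2 clones, 113 (6.78%) had clones further apart than Panx1 in Gja9_null against wildtype, where the median gap was 0.45 log2 units. The gap was -0.55 ± 0.55 without the first Gja9_null array (limma adjusted p = 0.882) and -2.28 ± 0.50 without the second, when it passed (limma adjusted p = 0.027). After local centring it was -0.95 ± 0.41 (limma adjusted p = 0.312).

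**Figure D4:**
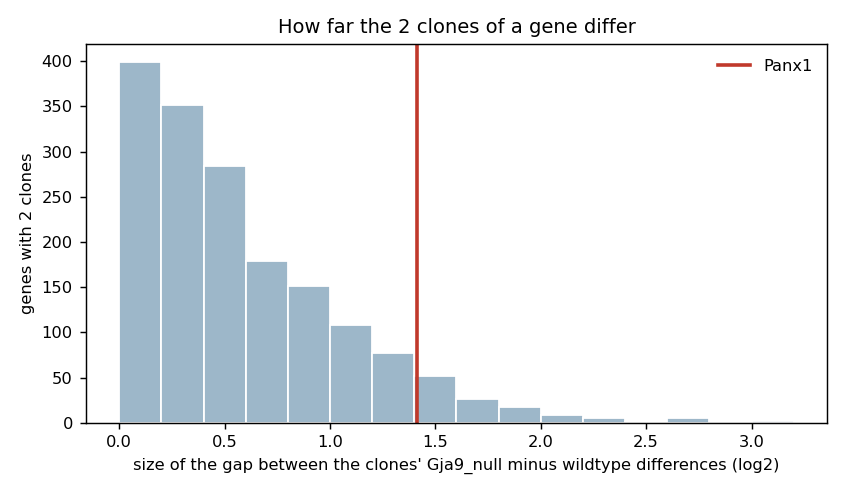
Size of the gap between the 2 clones of a gene in their Gja9_null minus wildtype difference (x axis, log2 units) for the 1666 genes with exactly 2 clones (y axis, number of genes in each bin). The red line marks Panx1, at a gap of 1.41, which 113 genes exceed.

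Across the 12 samples, the 2 Panx1 clones followed each other only loosely, with a Pearson r of 0.31 (0.32 over the 6 array means). The first Panx1 clone and Gja1 had an r of -0.21 (-0.26 over array means), and the second Panx1 clone and Gja1 one of 0.60 (0.63 over array means). After local centring, r was -0.29 between the Panx1 clones, 0.69 between Gja1 and the first clone and -0.49 between Gja1 and the second. Each of the 3 pairs thus changed sign with that step. These are descriptions over samples that share arrays.

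Genes of the proteins that anchor connexin43 plaques gave no call. Of 21 listed scaffold, adhesion and cytoskeletal partners 12 were measured, and 0 were called in either direction in any comparison. Their median difference in Gja9_null against wildtype was 0.04, against -0.10 over all features, and in Gja9_het against wildtype it was 0.14, against 0.03. Tjp1, the ZO-1 scaffold that binds the tail of connexin43 and also connexin36, differed by 0.43 ± 0.33 in Gja9_null (limma adjusted p = 0.671) and by -0.21 ± 0.33 in Gja9_het. Ctnnd1, the p120 catenin gene of adherens junctions, differed by 0.44 ± 0.26 and 0.21 ± 0.26 in the same order, and Dlg1, a PDZ scaffold, by -1.07 ± 0.63 and -0.49 ± 0.63. The Dlg1 value stood at -0.18 after local centring.

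Kinases, phosphatases, ubiquitin ligases and traffic proteins that act on connexin43 gave 22 measured genes of 33, again with 0 called in any comparison. Their median was -0.10 in Gja9_null against wildtype, against -0.10 over all features, and 0.05 in Gja9_het against wildtype, against 0.03. In Gja9_null against wildtype 8 had a positive and 14 a negative difference, and the 3 of smallest p, named next, were all negative. Prkaca, the catalytic subunit of protein kinase A, differed by -0.65 ± 0.29 in Gja9_null (limma adjusted p = 0.408). Wwp1, a ubiquitin ligase of the Nedd4 family, differed by -0.50 ± 0.28 and Stambp, a deubiquitinase of endosomal sorting, by -0.68 ± 0.38. After local centring these 3 stood at -0.21, -0.22 and -0.25.

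On the pannexin side few genes were measured. Of 31 listed purinergic receptors, nucleotide-degrading enzymes and nucleoside transporters, 4 had values, with a median of -0.19 in Gja9_null against wildtype. They were P2rx3, an ATP-gated channel of sensory neurons (-0.22 ± 0.54), Entpd5, a nucleoside diphosphatase (-0.27 ± 0.29), Adk, which phosphorylates adenosine (0.12 ± 0.28), and Slc29a1, a nucleoside transporter (-0.16 ± 0.46). Of 18 listed pannexin1 partners, caspases and inflammasome genes 2 had values. Dpysl2, which encodes the microtubule-binding protein CRMP2, differed by -0.76 ± 0.33 in Gja9_null and Actr3, a subunit of the Arp2/3 actin nucleator, by 0.72 ± 0.39 (limma adjusted p = 0.400 and 0.512). In both lists 0 genes were called in any comparison.

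Markers of astrocytes, the main source of connexin43, gave no call either. Of 26 astrocyte and radial glia markers 11 were measured, and 0 were called. Their median was -0.03 in Gja9_null against wildtype, -0.08 in Gja9_het against wildtype and 0.04 in Gja9_null against Gja9_het. After local centring these medians were 0.21, -0.15 and 0.32, against -0.01, 0.006 and -0.02 over all features. The locally centred Gja1 differences in the same order were 0.23, -0.40 and 0.63. The summed astrocyte signal, in units of the mean signal of a sample, lay between 20.9 and 22.3 in wildtype samples, 23.8 and 29.2 in Gja9_null and 18.6 and 24.9 in Gja9_het. The mean log2 level of the same markers overlapped between genotypes, at 0.24 to 0.44 in wildtype, 0.42 to 0.59 in Gja9_null and 0.29 to 0.54 in Gja9_het. In Gja9_null against wildtype on the deposited values, 5 of the 11 markers had a positive and 6 a negative difference. After local centring only Aldoc (-0.25) and Sox9 (-0.49) were negative. The sums and mean levels were not tested. Slc1a3, the glial glutamate transporter GLAST, differed by 0.90 ± 0.31 in Gja9_null and -0.49 ± 0.31 in Gja9_het, Fabp7, a fatty acid binding protein of radial glia, by 1.66 ± 0.67 and 1.75 ± 0.67, and Sox9, a glial transcription factor, by -0.72 ± 0.49 and 0.45 ± 0.49. The smallest limma adjusted p of these in Gja9_null against wildtype was 0.288, for Slc1a3. In Gja9_null against Gja9_het, Slc1a3 differed by 1.39 ± 0.31 (limma adjusted p = 0.0724), and by 0.91 after local centring. The part of the astrocyte share in the Gja1 values was not tested.

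Other cells of the brain that make connexin43 or pannexin1 were covered by fewer markers, and 0 markers of any list were called. The 9 measured genes of meninges, ependyma and choroid plexus had a median of -0.02 in Gja9_null against wildtype and a summed signal of 9.62 to 11 in wildtype, 7.45 to 10.6 in Gja9_null and 8.73 to 11.8 in Gja9_het. Among them were Ttr, the thyroid hormone carrier of choroid plexus (0.50 ± 0.34), Ptgds, a prostaglandin synthase of the meninges (-0.78 ± 0.67), and the proteoglycan gene Lum (-0.30 ± 0.31). After local centring Ptgds stood at -0.02. The 6 endothelial and mural genes had a median of 0.05, with the receptor gene Tek at -0.55 ± 0.30, the vascular cadherin gene Cdh5 at -0.46 ± 0.34 and Tie1 at 0.45 ± 0.40. After local centring this median was -0.21. Their summed signal was 3.89 to 5.51 in wildtype, 4.14 to 4.42 in Gja9_null and 4.21 to 4.40 in Gja9_het.

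The 9 measured neuronal markers had a median of -0.29 in Gja9_null against wildtype, 3 of them with a positive and 6 with a negative difference. Those of smallest p were all negative, with Nefm, a neurofilament subunit, at -1.74 ± 0.53, Syt1, the synaptic calcium sensor, at -0.77 ± 0.58 and Map2, of dendritic microtubules, at -0.30 ± 0.34. Their summed signal was 26.7 to 29.7 in wildtype, 19.0 to 31.8 in Gja9_null and 25.5 to 30.5 in Gja9_het. The 5 oligodendrocyte genes had a median of -0.64, and summed signals of 14.6 to 18.4 in wildtype, 7.40 to 14.9 in Gja9_null and 9.71 to 17 in Gja9_het, with Pdgfra of the precursors at -0.84 ± 0.34, Olig2 at -0.34 ± 0.33 and the myelin enzyme gene Cnp at -0.69 ± 0.70. The 4 microglial genes had a median of -0.21 and summed signals of 3.52 to 4.64, 2.95 to 3.56 and 4.33 to 4.78 in the same order, with Tyrobp at -0.73 ± 0.42, C1qb at 0.29 ± 0.29 and Itgam at -0.16 ± 0.27. Blood was represented by Alas2 (-1.45 ± 0.34, limma adjusted p = 0.107), Hbb-b1 (0.39 ± 0.41) and Hba-a2 (0.17 ± 0.54), with summed signals of 8.28 to 15.4, 12.3 to 15.6 and 8.57 to 13.4 in wildtype, Gja9_null and Gja9_het. In Gja9_null against Gja9_het, Alas2 differed by -1.71 ± 0.34 (limma adjusted p = 0.0576), and by -0.35 after local centring. After local centring the neuronal median was 0.03, the oligodendrocyte median -0.27, the microglial median -0.13 and the blood median 0.0045. Alas2 then stood at -0.20, Tyrobp at -0.06, Pdgfra at -0.27 and Nefm at -0.83, and the signs of Olig2 (0.15) and C1qb (-0.03) turned, while Syt1 (-1.20) and Map2 (-0.55) moved further from 0. The part of these cell types in the Panx1 values was not tested.

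**Figure D5:**
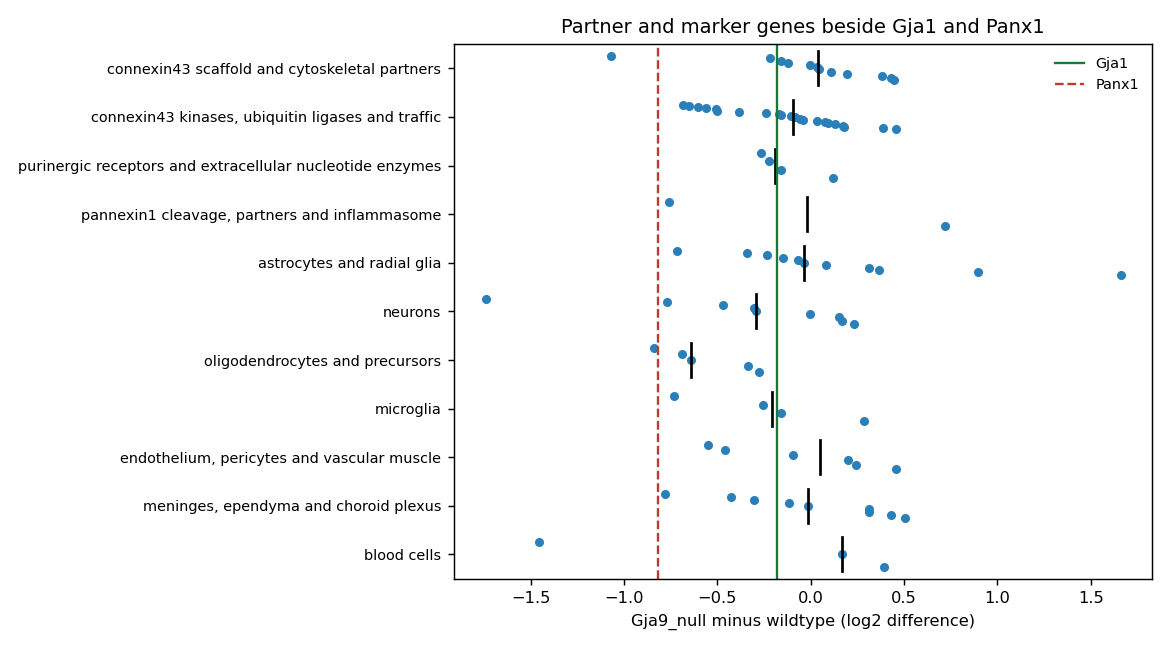
Gja9_null minus wildtype difference (x axis, log2) of each measured gene (points) in the lists of connexin43 partners, purinergic and pannexin1-related genes and cell type markers (y axis), with the list's median as a black bar. The solid line marks Gja1 at -0.18 and the dashed line Panx1, as the mean of its clones, at -0.82. Of all 9514 features, 10.4% had a lower difference than Panx1, and single list genes such as Nefm (-1.74) and Alas2 (-1.45) lie lower too. The first Panx1 clone alone stood at -0.11.

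The genes whose profile over the 12 samples was most like that of Gja1 were Cdc37, a kinase co-chaperone of Hsp90 (Pearson r = 0.96), Edc3, an enhancer of mRNA decapping (0.96), Herpud2 (0.94), Gprin1, which acts in neurite outgrowth (0.94), and Timp4, a metalloproteinase inhibitor (0.94). Of 6363 genes with an established symbol, 25 had an r above 0.9 with Gja1, and 18 of the 6363 did after local centring. After local centring Cdc37 still had an r of 0.95, while it was 0.82 for Herpud2, 0.64 for Gprin1, 0.44 for Edc3 and 0.27 for Timp4. Over the 6 array means, 1 of these 5 genes was among the 5 most alike.

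For Panx1, as the mean of its clones, the 5 most alike were Nsmaf, an adaptor of tumour necrosis factor receptor signalling, Letmd1, a mitochondrial membrane protein gene, Rab30, a small GTPase of the Golgi, Cnot6l, a deadenylase, and Tagln2, an actin-binding protein gene, with r between 0.96 and 0.97. As many as 189 of 6363 genes had an r above 0.9 with Panx1, and 2 did after local centring. The r of Nsmaf was then 0.02, that of Rab30 0.23, that of Cnot6l 0.63, that of Tagln2 0.71 and that of Letmd1 0.72. None of the 5 was among the 5 most alike over array means or after local centring. Over array means they ranked from 11 to 23 of 6363, with r between 0.977 and 0.984. After local centring they ranked from 141 to 3143. These correlations are descriptions over samples that share arrays.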

How the data were processed

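Per the labels' protocols, 60 micrograms of total RNA were labelled directly with Cy5 or Cy3. The deposited values are log2 signals that the authors scaled to each sample's mean: their antilogs have a mean of 1, as read from the values. Background correction, dye correction and the probe filter: not given in the sources used here. Probes take their gene from the array's probe table, with symbols updated through RefSeq (10263 of 10356 probes with 1 gene matched). The 560 probes with several genes and 2527 with none were tested unnamed.

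The labels do not say which extracts shared an array. The correlation of replicate 1 minus 3 with replicate 2 minus 4 was 0.919 to 0.940 in each genotype, so replicates 1 and 2 were paired, and 3 and 4. The dye follows the label field, from which the labelling text departs for 2 samples.

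Differences were fitted with limma 3.58.1 in R 4.3.3 on the 12 samples together, on terms for genotype and for dye, the array being a random block (correlation 0.928), for 9514 features (clones of a gene averaged) and for 13443 probes. P-values were adjusted by Benjamini-Hochberg, and an adjusted p under 0.05 was called. Alternatives changed the normalization, the array pairing, the block, the dim-probe filter and the samples left out. Local centring subtracted from each sample the median deviation of probes within 50 probe numbers, the probe itself included. Scripts were tested on simulated data. Named genes were both members, the 3 genes of smallest p in each of 12 lists and the 5 genes most correlated with each member. Slc29a1 was added after its value was seen, as the remaining gene of a list with 4 measured. The members and lists were chosen with earlier results of these data known. Array number, with 2 per genotype, limits the precision.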

Additional observations from a re-analysis of the deposited data

How the results depend on the processing

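Genotype varies between arrays, with 2 arrays each, and the spread between the arrays of a genotype limits every comparison of Gja1 and Panx1. The values hold no measure of background, so how far the dim second Panx1 clone stood above it is unknown. Of 495 alternative fits of the differences, 20 turned the sign and 21 passed an adjusted p under 0.05 in limma. With all 12 samples, and with replicates 1 and 2 and replicates 3 and 4 as the array block, no difference of Gja1 or Panx1 was called on the deposited values.

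The opposite pairing of samples on arrays made every one of these differences pass except the first Panx1 clone in Gja9_null against wildtype, with unchanged values: Gja1 at -0.18, -0.37 and 0.19 and Panx1 at -0.82, -0.20 and -0.62 (Gja9_null against wildtype, Gja9_het against wildtype and Gja9_null against Gja9_het), the first clone at 0.20 and -0.31 in the last 2, the second at -1.52, -0.60 and -0.93, and the gap between clones at -1.41, -0.80 and -0.62. The F statistic was then 13.2 for Gja1 and 78.4 for Panx1. That pairing goes against the correlations of the samples. Without the array as a block, the second clone (-1.52, limma adjusted p = 0.0293) and the gap (-1.41, 0.0452) in Gja9_null against wildtype passed. They also passed with the replicate number as a block (-1.52, limma adjusted p = 0.0469, and -1.41, 0.0465), which changed no other call. Without the second Gja9_null array, the second clone passed in Gja9_null against wildtype (-2.39) and against Gja9_het (-1.80), and the gap in Gja9_null against wildtype (-2.28). Samples of equal number had correlated deviations between wildtype and Gja9_het (0.13 to 0.24), but not between wildtype and Gja9_null (-0.10 to -0.07) or Gja9_null and Gja9_het (0.01 to 0.05). With 2 arrays a genotype, the pairs behind each range are not independent of each other. Over the 3 genotypes the replicate block thus pairs samples by number only. Both of these fits leave out the array that 2 samples share.

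Local centring turned Gja1 in Gja9_null against wildtype to 0.23 and the first clone to 0.012, -0.26 and 0.27 in the 3 comparisons. With array means as well, chosen after seeing the data, these values were the same, and with local centring and without the first Gja9_null array, also chosen so, Gja1 stood at 0.090, the first clone at -0.26 in Gja9_het against wildtype and 0.11 in Gja9_null against Gja9_het, and Panx1 at 0.021 in Gja9_null against Gja9_het. Panx1 in Gja9_het against wildtype turned to 0.20 without the dimmest 25% of probes or with the brightest clone alone. The range from highest to lowest Gja1 level was 0.63 after local centring, where the order changed.

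Leaving out single samples or arrays moved Gja1 between -0.73 and 0.38 in Gja9_null against wildtype, -0.46 and -0.27 in Gja9_het against wildtype and -0.37 and 0.74 in Gja9_null against Gja9_het. In the same order Panx1 ranged from -1.25 to -0.38, -0.52 to 0.13 and -1.06 to -0.18, the first clone from -0.52 to 0.30, -0.21 to 0.61 and -0.34 to -0.28, the second from -2.39 to -0.65, -0.90 to -0.29 and -1.80 to -0.06, and the gap from -2.28 to -0.55, -1.10 to -0.50 and -1.49 to 0.25.

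Over all features, an adjusted p under 0.1 called 56 in Gja9_null against wildtype and 119 in Gja9_null against Gja9_het, in place of 31 and 26, and an unadjusted p under 0.05 called 1106, 208 and 1424 in the 3 comparisons. Of the 5 genes most like Gja1, 1 remained among the 5 most alike over array means and 1 after local centring, and 0 and 0 for Panx1.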
